A study of Mus musculus with 6 samples.

Results

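The 6 genes described here are the mouse stefin A cluster members Stfa1, Stfa2, Stfa2l1, Stfa3, BC100530 and Gm5483, read in neutrophils of the central nervous system. They are 6 of the 28692 genes listed in the deposited matrices and were taken by their symbols, so every member is accounted for. Neutrophils were the cell barcodes with 100 or more unique molecular identifiers (UMIs, counts of distinct captured RNA molecules) of S100a8 and S100a9, which encode the calprotectin subunits that fill neutrophil cytoplasm. That gate held 3051 of 20030 barcodes (15.2%). Neutrophils were split at 20 UMIs of Camp, Ngp and Ltf, secondary granule genes transcribed while granulocytes mature, into 649 granule-low and 2402 granule-rich barcodes. A granule-low neutrophil would ordinarily be a mature cell and a granule-rich neutrophil an immature one. The barcodes were thus chosen by the measured levels of these 5 genes, and neither the gate nor the split is tested as a contrast.

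Stefins, also called type 1 cystatins, are small cytosolic proteins without a signal peptide. They bind reversibly in the active-site cleft of papain-like cysteine proteases, such as cathepsins B, L and S, and so inhibit them. In mice the stefin A gene has been amplified into a tandem cluster whose transcripts are abundant in bone marrow granulocytes, while stefin B stays a separate gene, Cstb. miR-155 is a microRNA induced in activated immune cells. MicroRNAs pair through their seed, the bases near the 5′ end, with matching sites in messenger RNAs, mostly in the 3′ untranslated region, and lower the amount of the message or of its protein.

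The 6 members lie within 298.6 kb of chromosome 16 (GENCODE M21, GRCm38). Stfa2l1 occupies bases 36156811 to 36161953, Gm5483 36184212 to 36188111 and Stfa1 36276951 to 36285373, all on the plus strand. BC100530 occupies bases 36359382 to 36367748, Stfa2 36403992 to 36408457 and Stfa3 36450537 to 36455392, all on the minus strand. The annotation places 4 other genes of the cluster between them, Gm5416, 2010005H15Rik, BC117090 and Gm4758, with Csta1 just outside. The Mir155 hairpin is on the same chromosome at 84714140 to 84714204, 48.3 Mb away.

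Promoter sequence is shown because the 6 members share stretches just before their RefSeq starts and were all higher on day 13 than on day 0 in WT. All 6 matched a RefSeq promoter window (GRCm38.p6, 250 bases before to 50 after the start), Gm5483 as Cstdc4 and BC100530 as Cstdc5. The windows of all 6 held 4 stretches of 10 or more bases in common, of which 3 lay before the RefSeq start. Capitals mark those 3, CACACTCATT, AGAGGAGGAG and, at the end of each 80-base run, ACCTTTAAAACCC, whose first base lies 12 to 36 bases before the RefSeq start.
Stfa2l1, chr16:36156708-36156787 (+): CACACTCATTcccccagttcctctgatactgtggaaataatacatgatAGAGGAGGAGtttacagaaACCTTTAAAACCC
Gm5483, chr16:36184113-36184192 (+): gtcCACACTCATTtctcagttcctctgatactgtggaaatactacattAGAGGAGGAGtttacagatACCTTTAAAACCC
Stfa1, chr16:36277048-36277127 (+): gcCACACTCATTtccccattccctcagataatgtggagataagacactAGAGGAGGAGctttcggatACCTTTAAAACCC
BC100530, chr16:36367570-36367649 (-): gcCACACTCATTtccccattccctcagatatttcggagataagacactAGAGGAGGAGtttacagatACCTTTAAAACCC
Stfa2, chr16:36408383-36408462 (-): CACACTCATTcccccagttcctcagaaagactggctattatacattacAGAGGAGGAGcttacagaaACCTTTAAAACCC
Stfa3, chr16:36455414-36455493 (-): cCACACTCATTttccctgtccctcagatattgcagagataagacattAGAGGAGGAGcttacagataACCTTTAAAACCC
Searched on both strands, ACCTTTAAAACCC was found in 9 of 32851 promoter windows (0.0274%), and all 9 belonged to stefin or cystatin-like genes, the 6 members with Csta3, Cstdc3 and Gm7260. AGAGGAGGAG was in 337 windows (1.03%) and CACACTCATT in 37 (0.113%). The common stretch at the start, GATCATTTCTTCT, was in 10 windows (0.0304%), of which 9 were the same 9 genes. None of these stretches overlaps another in the runs shown. RefSeq and GENCODE differ on some starts. By the GENCODE coordinates given above, the runs of Stfa1 and BC100530 lie inside the gene, and that of Stfa2 lies inside it but for its first bases. The TATA-box core TATAAA was in none of the 6 windows, against 13.6% of all windows, and the GATA-type word AGATAA was in 3 of 6, against 11.2%. These are matches of letters in a window and say nothing of which factor binds there. Over the whole 300-base windows the 15 pairs of members were 66.4% to 90.5% identical, highest for Stfa2l1 and Stfa2.

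Mature miR-155-5p is shown because its loss separates the genotypes, with its seed (bases 2 to 8) in capitals (chr16:84714143-84714165, plus strand, GRCm38.p6).
miR-155-5p: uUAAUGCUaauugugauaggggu
A match to that seed was found in 0 of 7 annotated coding transcripts of the members, each 412 to 619 bases long. Of 58797 mouse coding transcripts 9.78% held at least 1, and at that share fewer than 1 would be found in 7. That share covers transcripts of every length and was not matched to the length of the members' transcripts.

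Each transcript was counted near its 3′ end, and the members resemble one another there. The annotated transcripts of Stfa1 and BC100530 were 96.8% identical, and 98.7% over their last 300 bases. Of all 90-base stretches in the last 300 bases, 41.7% for BC100530 also occurred in BC117090 or Stfa1, 21.3% for Gm5483 in 2010005H15Rik, and 18.5% for Stfa1 in BC100530. The share was 3.79% for Stfa2, 3.32% for Stfa2l1 and 0 for Stfa3. The division of counts between Stfa1 and BC100530, and between Gm5483 and 2010005H15Rik, is therefore uncertain, and sums over the members are given beside the single genes.

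The study induced experimental autoimmune encephalomyelitis (EAE, a mouse model of multiple sclerosis) in C57BL/6 mice that were miR-155KO or wild type (WT), and sorted live CD45+ immune cells for droplet single-cell RNA sequencing. There were 6 libraries, 1 for each genotype on day 0, day 13 and day 21. Day 0 libraries came from unimmunized mice, and days 13 and 21 are counted from induction. Each comparison with day 0 thus sets immunized against unimmunized mice. Every library is labelled as 5 mice, with nothing tying a barcode to an animal. Brain is the labelled tissue, although the protocol in the labels takes cells of brain and spinal cord, and how the knockout allele was made is not stated. The numbers that open the library titles are shared by both genotypes of a day and differ between days, so that day and this number cannot be told apart. Below, KO is miR-155KO. Each genotype and day is 1 library, so KO and WT libraries of a given day are compared without replicates, by intervals that cover counting error only.

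The libraries held 1681 to 5630 barcodes and 93001478 UMIs in all, with medians of 3019 to 4368 UMIs a barcode. Mir155hg, the host transcript of miR-155, had 0, 0 and 1 UMIs in KO on days 0, 13 and 21, and 2, 45 and 59 in WT, though the labels do not say whether the deleted stretch includes its 3′ end. Pairs of libraries shared 5 to 32 barcodes, and at most 1 of them was gated as a neutrophil in both. KO libraries of the 3 days held 83, 344 and 627 neutrophils, and WT libraries 266, 534 and 1197. Of 10 neutrophil markers, the median gated barcode had 6 to 8, and none of the 10 was at 0 in any library's granule-low or granule-rich sum.

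The granule-low label did not hold everywhere. Barcodes with 3 or more detected markers of another cell type made up 6.67%, 78.4% and 19.9% of granule-low neutrophils in KO on days 0, 13 and 21, and 34.1%, 54.8% and 51.1% in WT. In granule-low KO barcodes of day 13, S100a8 and S100a9 made up a median of only 3.32% of UMIs, against 10.7% in WT, and the mixed barcodes were deep (median 11748 UMIs, against 2602 for the rest). Most of those 80 KO barcodes carried microglial (32) or monocyte (30) markers. Their summed stefin level was 202 CPM (counts scaled to 1000000 UMIs of the same barcodes), against 5495 CPM in the remaining 22 granule-low barcodes of that library. Values below are for all gated neutrophils unless they are said to be without the mixed barcodes, and the main results are given both ways. The removal was chosen after the data were seen and leaves 2056 neutrophils, 358 of them granule-low. The part of the mixed barcodes in the results was not tested beyond this removal.

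**Figure D1:**
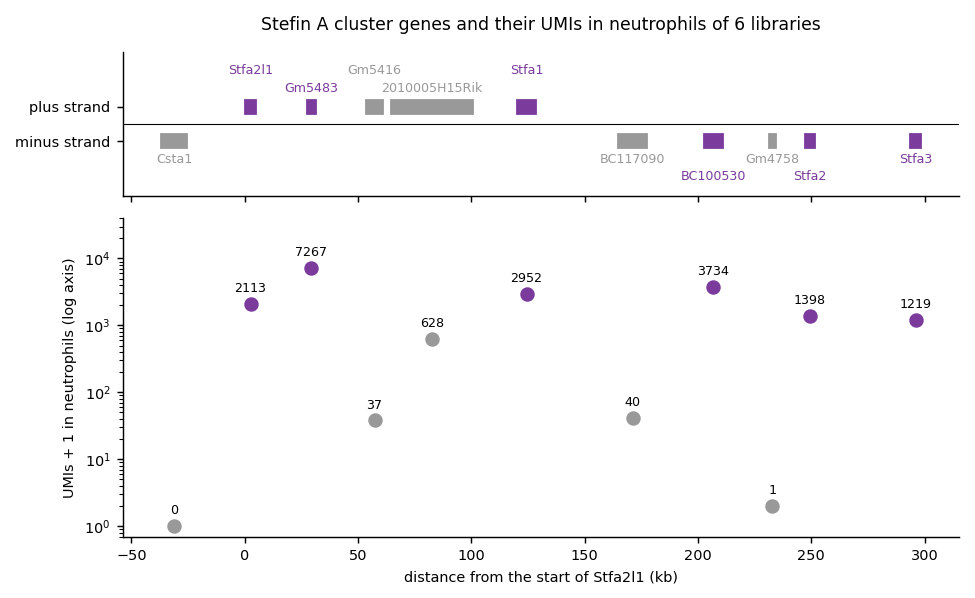
Upper panel: gene positions on chromosome 16 as distance in kb from the start of Stfa2l1, with the plus strand above and the minus strand below the line; members are purple and other annotated cluster genes grey. Lower panel: UMIs plus 1 on a log axis, summed over neutrophils of 6 libraries, from 7267 for Gm5483 to 0 for Csta1.

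All 6 members were detected in neutrophils, and they held most of the cluster's UMIs. Gm5483 had 7267 UMIs over the 6 libraries, BC100530 3734, Stfa1 2952, Stfa2l1 2113, Stfa2 1398 and Stfa3 1219. Among the neighbours only 2010005H15Rik, another cystatin-domain gene, came near them with 628 UMIs, while BC117090 had 40, Gm5416 37, Gm4758 1 and Csta1 0. On the map of the cluster, Gm5416, 2010005H15Rik, BC117090 and Gm4758 lie among the members.

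Stefin A transcripts stood highest in neutrophils of day 13, the time at which EAE signs usually appear, and higher in WT than in KO on that day. Summed over the 6 members, the level was 419 CPM (95% exact Poisson interval 358 to 488) in KO and 220 CPM (195 to 249) in WT on day 0. On day 13 it was 1000 CPM (966 to 1035) in KO and 2833 CPM (2782 to 2885) in WT. On day 21 it was 380 CPM (358 to 403) in KO and 422 CPM (405 to 440) in WT. The order was thus WT day 13, KO day 13, WT day 21, KO day 0, KO day 21 and WT day 0, and the interval of KO day 0 overlapped those of both day 21 libraries. Without mixed barcodes the sums were 617, 2979 and 491 CPM in KO on days 0, 13 and 21, and 268, 5200 and 700 CPM in WT.

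Gm5483 was the most counted member in 5 of the 6 libraries. It had 76.3, 359 and 200 CPM in KO on days 0, 13 and 21, and 117, 1025 and 212 CPM in WT. BC100530 had 17.8, 200 and 25.2 CPM in KO, and 7.54, 657 and 55.8 CPM in WT. Both stood highest on day 13 in each genotype, and BC100530 was close to its counting floor on day 0, with 7 UMIs in KO and 9 in WT.

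Stfa2 had the widest range of the members. It had 0, 89.0 and 2.07 CPM in KO on days 0, 13 and 21, and 1.68, 243 and 19 CPM in WT. The day 0 values rest on 0 UMIs in KO, which allows up to 7.63 CPM, and on 2 in WT. Stfa2 on day 13 was at least 11.7-fold higher than on day 0 in KO (against a floor of 3 counts in that library), and 145 times higher in WT (counting interval 40.1 to 1201).

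Stfa1, Stfa2l1 and Stfa3 were, like Gm5483, already present on day 0. By CPM Stfa1, Stfa2l1 and Stfa3 then stood higher in KO than in WT. Stfa1 had 117, 166 and 70.8 CPM in KO on days 0, 13 and 21, and 19.3, 445 and 57.8 CPM in WT. Stfa2l1 had 125, 110 and 74.3 CPM in KO, and 52.8, 265 and 62.8 CPM in WT. Stfa3 had 83.9, 76.9 and 7.95 CPM in KO, and 21.8, 197 and 14.6 CPM in WT. In WT all 3 stood highest on day 13, whereas in KO Stfa2l1 and Stfa3 stood highest on day 0, a library of 83 neutrophils. There 1 granule-rich barcode held 25 of the 33 Stfa3 UMIs, and 1 granule-low barcode 28 of the 46 Stfa1 UMIs.

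**Figure D2:**
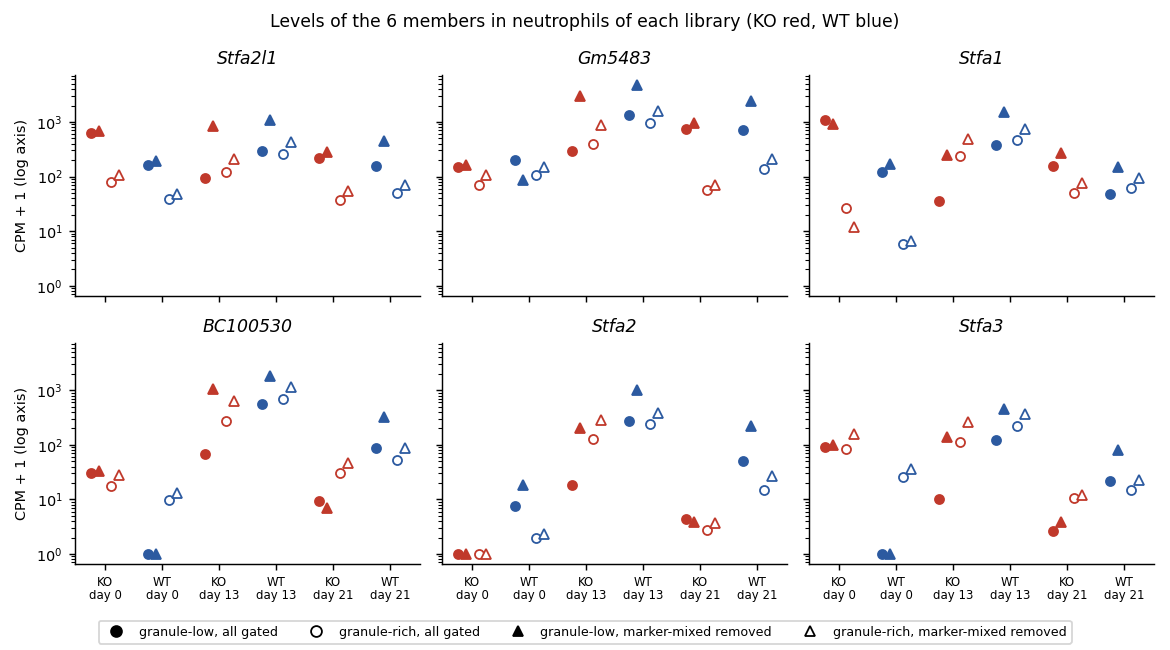
CPM plus 1 (log axis) of each member in the 6 libraries, KO red and WT blue, with KO left of WT on each day; filled symbols are granule-low and open symbols granule-rich neutrophils, circles all gated barcodes and triangles those left without mixed barcodes. Each point is 1 library; Stfa2 lies at 0 CPM in KO on day 0 and at 243 CPM over all WT neutrophils of day 13.

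The days were compared in edgeR's quasi-likelihood test over all 6 libraries with genotype as a covariate, so that each day rests on its KO and its WT library (adjusted p by Benjamini-Hochberg over all genes tested, threshold 0.05). All 6 members passed its filter on low counts. From day 0 to day 13, 3 of 6 members rose and none fell, where 4.44% of 9054 genes rose and 3.87% fell. Gm5483 rose by 2.38 on the log2 scale (SE 0.40, edgeR adjusted p = 0.00505), BC100530 by 5.00 (SE 0.55, adjusted p = 0.000478) and Stfa2 by a fitted 7.14 (SE 0.58, adjusted p = 5.50e-05), a size that depends on the fit's prior count because of its 2 UMIs on day 0. Stfa1 had 2.15 (edgeR adjusted p = 0.0746), Stfa3 1.16 (0.235) and Stfa2l1 0.83 (0.323). Their median was 2.26, against 0.09 over all genes tested. These calls did not hold without the WT library of day 0, a fit that leaves that day with 1 library. Without mixed barcodes all 6 rose, where 7.83% of 5622 genes rose and 5.39% fell.

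Without the mixed barcodes the day 13 increases ran in log2 from 1.77 for Stfa2l1 (SE 0.32, edgeR adjusted p = 0.000510) and 2.09 for Stfa3 (SE 0.39, 0.000552) to 5.96 for BC100530 (SE 0.33, 1.81e-11) and 7.64 for Stfa2 (SE 0.63, 1.63e-08). Gm5483 had 3.36 (SE 0.19) and Stfa1 3.53 (SE 0.42).

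By day 21 the cluster had come down again. Against day 13, 3 of 6 members fell and none rose, where 0.221% of 9054 genes fell and 0.110% rose: Stfa2 by 3.98 on the log2 scale (SE 0.32, edgeR adjusted p = 6.86e-05), Stfa3 by 3.32 (SE 0.54, 0.0279) and BC100530 by 3.05 (SE 0.40, 0.00700). Stfa1 had -2.07, Gm5483 -1.30 and Stfa2l1 -1.20, with edgeR adjusted p of 0.196, 0.196 and 0.332. Without KO of day 0, 3 members were called lower, where 11 of 9734 genes were. Without WT of day 0 there were again 3, where 7 of 9762 genes were lower. Leaving out a library of day 13 or day 21 leaves that day with 1, and the members called there were all lower. With DESeq2 1 member was called. Without mixed barcodes all 6 fell, where 2.93% of genes fell and 1.28% rose, from -1.82 for Stfa2l1 to -4.13 for Stfa2.

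Against day 0, no member passed on day 21, where edgeR called 0.144% of genes as higher and 0.0110% as lower. Over all genes 14 were called, 923 had an unadjusted p under 0.05 and DESeq2 called 107. Stfa2 had 3.16 (edgeR adjusted p = 0.136), BC100530 1.95 (0.243) and Gm5483 1.08 (0.362), while Stfa3 had -2.16 (0.238). Without mixed barcodes Gm5483 rose by 1.20 (SE 0.19, edgeR adjusted p = 0.00101), BC100530 by 2.33 (SE 0.38, 0.00114) and Stfa2 by 3.51 (SE 0.93, 0.0365), and Stfa3 fell by 1.85 (SE 0.47, 0.0270), where 2.44% of genes rose and 0.694% fell. Leaving out KO of day 13 gave 3 higher members and 1 lower, where 396 of 9260 genes rose and 194 fell. Leaving out WT of day 13 also gave 3 and 1, where 366 of 9448 genes rose and 154 fell. Those calls were not made without either day 0 library, and leaving out a day 0 or day 21 library leaves that day with 1. Without mixed barcodes Stfa3 thus moved apart from Gm5483, BC100530 and Stfa2 between day 0 and day 21, though most of its KO UMIs of day 0 sat in 1 barcode.

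KO and WT neutrophils of the same day differed in opposite directions on day 0 and day 13. On day 0 the summed level in KO was 1.90 times that in WT (exact conditional interval 1.56 to 2.32), on day 13 0.353 times (0.339 to 0.367) and on day 21 0.901 times (0.838 to 0.969). Without mixed barcodes the ratios were 2.30 (1.84 to 2.87), 0.573 (0.547 to 0.599) and 0.701 (0.647 to 0.760). With S100a8 and S100a9 left out of the totals the day 21 log2 ratio was 0.04, against -0.15 with them. In KO of day 0 the most loaded granule-low barcode and the most loaded granule-rich one each held 33 of the 165 stefin A UMIs. The intervals treat every UMI as independent and do not cover such clumping. These are comparisons of 2 libraries each, with no test of the genotype.

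On day 0, 4 of the 5 members at 10 CPM or more were at least 1.5-fold higher in KO, as were 13.0% of 5938 genes. Their KO over WT ratios were 6.07 for Stfa1 (interval 3.60 to 10.5), 3.85 for Stfa3 (2.23 to 6.70), 2.36 for Stfa2l1 (1.59 to 3.48) and 2.36 for BC100530 (0.747 to 7.12). Gm5483 was lower in KO, at 0.650 (0.423 to 0.970), as were 21.2% of genes past 1.5-fold, and stood at 0.785 (0.488 to 1.22) without mixed barcodes. Its log2 ratio was 0.08 without barcodes of 3 or more T, B and microglia marker UMIs. Stfa2, with 0 UMIs in KO and 2 in WT, gave no ratio.

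On day 13 all 6 members were at least 1.5-fold lower in KO, as were 2.30% of 6477 genes. The ratios ran from 0.304 for BC100530 to 0.416 for Stfa2l1, and the members' median log2 ratio was -1.43, against 0.15 over all genes. After removal of the mixed barcodes the 6 were still lower by 1.5-fold or more, at 0.533 to 0.665, but so were 17.1% of 5024 genes. Of the mixed barcodes, 181 were among the 344 KO neutrophils of that day and 222 among the 534 in WT.

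On day 21 the members parted. Stfa2 was at 0.109 of WT (interval 0.0391 to 0.245), BC100530 at 0.452 (0.345 to 0.586) and Stfa3 at 0.545 (0.327 to 0.876), all past 1.5-fold lower, as were 21.6% of 5950 genes. Gm5483 stood at 0.943 (0.852 to 1.04), Stfa2l1 at 1.18 (0.993 to 1.41) and Stfa1 at 1.23 (1.02 to 1.47). Without mixed barcodes the ratios of Stfa2, BC100530 and Stfa3 were 0.0738, 0.375 and 0.365, and that of Gm5483 was 0.667. Stfa2 rested on 6 UMIs in KO and 103 in WT.

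**Figure D3:**
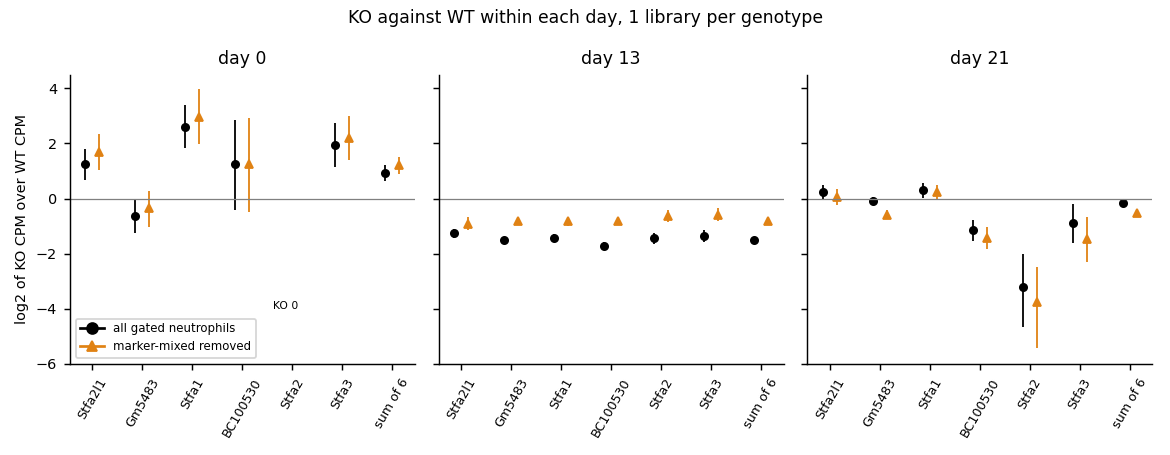
Log2 of the KO over the WT level in neutrophils of each day, for each member and their sum; lines are 95% exact intervals for counting error, black circles all gated neutrophils and orange triangles those without mixed barcodes. The 6 members lie below 0 on day 13, and Stfa2 is lowest on day 21; it has no ratio on day 0, where KO had 0 UMIs.

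Across days, the genotypes were tested with all 6 libraries and day as a covariate. In all neutrophils 0 of 6 members passed, where edgeR called 0.0110% of 9054 genes as lower and none as higher. The gene called was Ccl1, a chemokine; 215 genes had an unadjusted p under 0.05, and DESeq2 called 1. Stfa2 had rank 2 of all genes by p, with a log2 difference of -1.96 (SE 0.30, edgeR adjusted p = 0.103). BC100530 had -1.15 (SE 0.37) and Gm5483 -0.71 (SE 0.32), both with an adjusted p of 1, and the others lay between -0.38 and 0.24. Leaving out a library called 0 to 3 members. There were 3 without KO of day 13, 2 of them higher in KO, and 2 without WT of day 13, 1 of them higher. Without either day 21 library there were 3, all lower. Over all genes 72 were called higher and 142 lower of 9260 without KO of day 13. Without WT of day 13 these were 52 and 110 of 9448. They were 32 and 11 of 9775 without KO of day 21, and 31 and 11 of 9412 without WT of day 21. Without mixed barcodes 0 of 6 passed, where 0.178% of 5622 genes were called as higher and 0.249% as lower, with BC100530 at -0.79 (edgeR adjusted p = 0.0801), Stfa2 at -1.10 (0.113) and Gm5483 at -0.51 (0.115).

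In granule-low neutrophils Stfa2 and BC100530 fell in KO. Stfa2 had 0, 17.5 and 3.34 CPM in KO on days 0, 13 and 21, and 6.66, 276 and 50.3 CPM in WT. BC100530 had 29.7, 66.2 and 8.35 CPM in KO, and 0, 553 and 85.7 CPM in WT. On days 13 and 21 both genes were lower in KO, and on day 0 neither had more than 1 UMI in either library. The log2 difference was -3.90 for Stfa2 (SE 0.65, edgeR adjusted p = 7.11e-06) and -2.88 for BC100530 (SE 0.62, 0.00593), so that 2 of 6 members were called lower, where 0.0646% of 6192 genes were. The other 2 genes called were Gzma and Cd8b1, both of cytotoxic lymphocytes, and T cell markers summed to 1025 CPM in granule-low WT barcodes of day 21, against 142 CPM in KO. Stfa3 had -2.77 (SE 0.70, adjusted p = 0.0849), Gm5483 -0.80, Stfa2l1 0.26 and Stfa1 0.85.

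The BC100530 call and the Stfa2 call depended on single libraries. No member was called without KO of day 13, WT of day 13, KO of day 21 or WT of day 21. None was called when barcodes with 3 or more UMIs of T, B and microglia markers were dropped. Without either day 0 library 3 members were called, all lower. Of all genes 6 of 7252 were lower without KO of day 0, and 7 of 7235 without WT of day 0. Without the mixed barcodes Stfa2 alone was called of 1276 genes (0.0784%), at -3.21 (SE 0.48, edgeR adjusted p = 0.00385), and BC100530 had -2.04 (adjusted p = 0.806). Stfa2 then had 0, 201 and 2.92 CPM in KO on days 0, 13 and 21, and 17.2, 999 and 220 CPM in WT, on 0, 13 and 1 UMIs in KO and 1, 152 and 36 in WT. BC100530 had 32.1, 1037 and 5.85 CPM in KO, and 0, 1840 and 317 CPM in WT. Within day 21 the granule-low ratio for Stfa2 was 0.0133 (interval 0.000328 to 0.0790) and for BC100530 0.0184 (0.00217 to 0.0699).

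In granule-rich neutrophils 0 of 6 members passed, where edgeR called none of 8097 genes, 215 had an unadjusted p under 0.05 and DESeq2 called 1. Gm5483 had rank 4 of all genes by p, at -1.06 (SE 0.20, edgeR adjusted p = 0.517), and had 69.5, 391 and 55.8 CPM in KO on days 0, 13 and 21, and 105, 955 and 134 CPM in WT, lower in KO on each day. Stfa2 had -1.35 (SE 0.31, adjusted p = 0.969). Leaving out a library called 0 to 4 members, all lower in KO. There were 4 without either day 21 library, 1 without either day 13 library and 0 without either day 0 library. Genes called lower were 22 of 8761 without KO of day 21 and 18 of 8620 without WT of day 21. They were 62 of 8690 without KO of day 13 and 69 of 8728 without WT of day 13. With no filter on low counts 2 members were called lower, where 17 of 14274 genes were. Without mixed barcodes 0 of 6 passed, where 0.0188% of 5328 genes were called as higher and none as lower, and Gm5483 had -0.92 (SE 0.17, edgeR adjusted p = 0.156). Whether the genotype difference itself differed between granule-low and granule-rich neutrophils was not tested.

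Granule-low neutrophils carried more stefin A transcript than granule-rich ones in most libraries, given as a description because the split defines both groups. Summed over the members, granule-low barcodes had 1990, 517 and 1138 CPM in KO on days 0, 13 and 21, and granule-rich barcodes 272, 1246 and 182 CPM. In WT granule-low barcodes had 486, 2940 and 1067 CPM on those days, and granule-rich barcodes 182, 2807 and 320 CPM. The granule-low level was higher in 5 of 6 libraries, with a median log2 ratio of 1.57, and the KO library of day 13 was the exception at -1.27. Without mixed barcodes it was higher in 6 of 6 libraries, between 0.88 and 2.86 with a median of 1.69, and that library had 5495 CPM in granule-low and 2762 CPM in granule-rich barcodes.

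The members were not alike in this. Stfa2l1 was higher in granule-low barcodes in 5 of 6 libraries (median log2 ratio 1.86), by at least 1.5-fold in 4, as were 29.0% of 4589 genes in 4 or more. Without mixed barcodes it was higher in 6 of 6 by at least 1.5-fold (1.35 to 2.71, median 2.23), as were 5.27% of 3681 genes. Gm5483 had a median of 1, or 1.68 without mixed barcodes, and Stfa1 0.68, or 1.42. BC100530 had -1.01, or 0.48, and Stfa2 0.44, or 0.73. Stfa3 ran the other way by its median, at -1.42, or -0.81 without mixed barcodes. It was at least 1.5-fold lower in granule-low barcodes in 4 of 6 libraries under both. So were 5.34% of genes, or 18.4% without mixed barcodes, in 4 or more. Without mixed barcodes those 4 libraries rested on 0 to 9 granule-low Stfa3 UMIs, with counting intervals that all included no difference. In WT of day 21 Stfa3 was then 3.60 times higher in granule-low barcodes (1.80 to 6.67).

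Along finer steps of granule content, without mixed barcodes, the level was lowest in the richest step on days 13 and 21, with no even decline before it. In KO of day 13 the summed level was 5729, 5082, 4789, 3913, 6186 and 2049 CPM in barcodes of 0 to 4, 5 to 19, 20 to 49, 50 to 99, 100 to under 200 and 200 or more granule UMIs. In WT of day 13 it was 10911, 10299, 11136, 15911, 7870 and 3068 CPM. On day 21 the same steps held 1620, 1361, 1307, 533, 787 and 61.7 CPM in KO, and 2683, 4302, 2319, 810, 1180 and 263 CPM in WT. The steps on either side of the split at 20 differed little on day 13, and on day 21 the 3 poorest steps stood above the 3 richest in both genotypes. On day 0 the steps held 778, 309, 1688, 1470, 363 and 42.8 CPM in WT. The 5 lower KO steps of day 13 held fewer than 20 barcodes each, and the KO library of day 0 varied between 86.3 and 3126 CPM with no order.

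**Figure D4:**
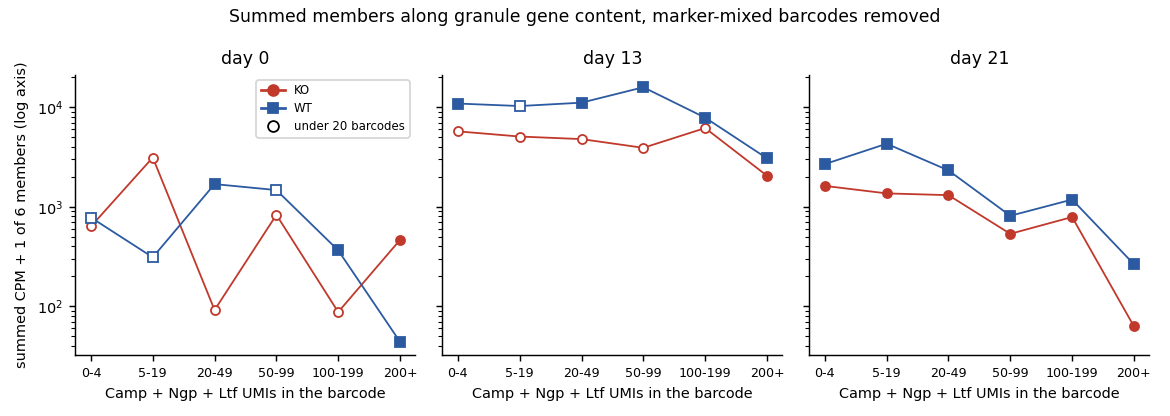
Summed CPM plus 1 of the 6 members (log axis) against UMIs of Camp, Ngp and Ltf in the barcode, by day, KO red and WT blue, without mixed barcodes; open symbols rest on fewer than 20 barcodes. On days 13 and 21 the step of 200 or more granule UMIs is the lowest of each library, at 2049 and 61.7 CPM in KO and 3068 and 263 CPM in WT.

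The mix of members changed with the day. Gm5483 made up 18.2%, 35.9% and 52.5% of stefin A UMIs in KO on days 0, 13 and 21, and 53.2%, 36.2% and 50.2% in WT. BC100530 made up 4.24%, 20% and 6.64% in KO, and 3.42%, 23.2% and 13.2% in WT, and Stfa2 0, 8.89% and 0.545% in KO, and 0.760%, 8.59% and 4.51% in WT. Over all neutrophils of day 13 the genotypes thus had nearly the same mix at different totals. In granule-low neutrophils of that day the mix differed. There Gm5483 made up 57.1% in KO (52.9% to 61.3%) and 44.9% in WT (42.9% to 47.0%), Stfa1 6.58% and 12.8%, and Stfa2 3.38% and 9.38%. On day 0 Stfa2l1 (29.7%), Stfa1 (27.9%) and Stfa3 (20%) led in KO, against 24.0%, 8.75% and 9.89% in WT. The day 0 shares rest on few barcodes. In KO 138 of 165 stefin A UMIs lay in 8 barcodes, and in WT 244 of 263 lay in 27. Whether the day 0 mix differed between genotypes was not tested.

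**Figure D5:**
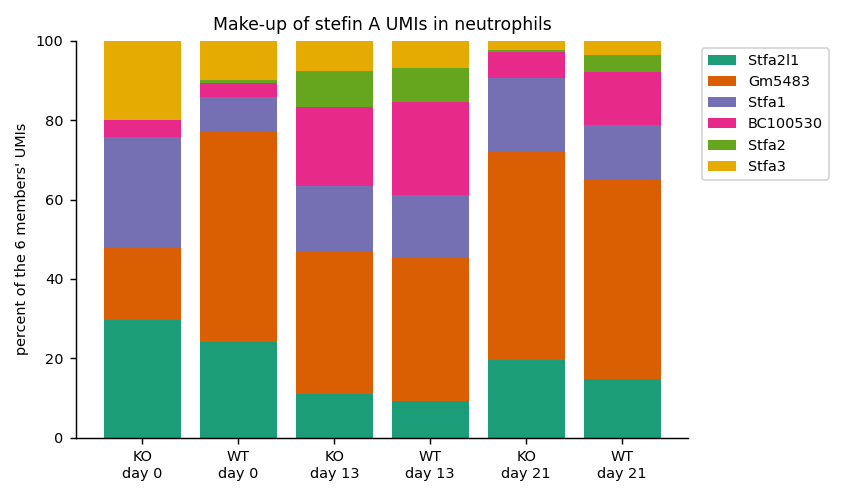
Percent of the 6 members' UMIs that each member held in neutrophils of each library, KO left of WT on each day. On day 0 Gm5483 holds 18.2% in KO and 53.2% in WT, with about the same share in both genotypes on day 13 (35.9% in KO, 36.2% in WT). The day 0 shares rest on 165 UMIs in KO and 263 in WT, most of them in few barcodes.

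Within a library the transcripts sat in few barcodes. At least 1 stefin A UMI was seen in 22, 152 and 149 KO neutrophils on days 0, 13 and 21, and in 43, 318 and 304 WT neutrophils. The top 10% of neutrophils held 83.6%, 76.8% and 86.8% of the UMIs in KO, and 92.8%, 69.4% and 85.4% in WT, or 90.4%, 70.2% and 86.5% in KO, and 92%, 62.1% and 84.9% in WT, without mixed barcodes. Single barcodes reached 33, 265 and 99 UMIs in KO, and 24, 359 and 71 in WT.

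To compare shares at equal depth, each barcode was thinned to 1500 UMIs, which left out 2 granule-low barcodes of KO day 21 and no other neutrophil. A stefin A UMI then remained in 40%, 28.4% and 34.9% of granule-low KO neutrophils on days 0, 13 and 21, and in 24.4%, 55.6% and 35.1% in WT. In granule-rich neutrophils the shares were 16.2%, 30.6% and 11% in KO, and 11.1%, 41.2% and 17.4% in WT. T cells, which should lack these genes, had 1.22%, 0.987% and 0.901% in KO and 0, 2.21% and 0.443% in WT at the same thinned depth, from median depths of 2351 to 3568 UMIs, against 2214 to 8790 in neutrophils. The neutrophil shares were above these in every library. Before thinning, the granule-low shares were 40%, 41.2% and 41.4% in KO, and 29.3%, 65.1% and 43.1% in WT, and without mixed barcodes the thinned ones were 35.7%, 68.2% and 37.1% in KO, and 18.5%, 82.5% and 45.9% in WT.

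Several members were seen together mainly on day 13. Thinned barcodes with 3 or more of the 6 members made up 0, 3.92% and 0.529% of granule-low neutrophils in KO on days 0, 13 and 21, and 0, 27.0% and 5.75% in WT. Without mixed barcodes those shares were 0, 13.6% and 0.662% in KO, and 0, 40.4% and 14.1% in WT. In granule-rich neutrophils they made up 1.47%, 10.3% and 0.459% in KO, and 0, 16.9% and 1.17% in WT.

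Outside neutrophils the members were at low levels. Neutrophils held 18683 of the 19184 stefin A UMIs (97.4%), between 96.1% and 98.2% in each library, a share the gate itself favours. All other barcodes together had 0.506, 7.88 and 3.57 CPM in KO on days 0, 13 and 21, and 0.814, 15.1 and 4.57 CPM in WT. Counted per 1000 UMIs of S100a8 and S100a9, the other barcodes had 1.35, 9.58 and 2.49 stefin A UMIs in KO and 1.39, 13.5 and 3.86 in WT, beside 1.22, 7.28 and 1.30 for KO neutrophils and 0.704, 16.0 and 2.23 for WT neutrophils. Per S100a8 and S100a9 UMI, the other barcodes thus had no fewer stefin A UMIs than neutrophils except in WT on day 13. On day 0 their values rested on 3 stefin A UMIs in KO (0.278 to 3.93 per 1000) and 6 in WT (0.512 to 3.04). Both intervals hold the neutrophil value and allow lower ones. Free RNA in the droplets was not measured, and its part in these UMIs was not tested. On day 13 microglia had 14.9 CPM in KO and 19.5 CPM in WT, monocytes and macrophages 8.83 and 10.5 CPM, T cells 1.90 and 14.3 CPM, and B cells 9.33 and 15.8 CPM.

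On day 13 barcodes at the edge of the gate had lower levels than all gated neutrophils. Those with 100 to under 150 UMIs of S100a8 and S100a9 then had 176 CPM in KO and 33.6 CPM in WT, and those just below the gate, with 50 to 99, had 134 CPM in KO and 251 CPM in WT. On day 21 those inside had 253 CPM in KO (135 to 433) and 330 CPM in WT (240 to 441), intervals that hold the levels of all gated neutrophils, and those below 176 CPM in KO and 66.2 CPM in WT. No barcode of day 0 fell in either range.

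Other genes of the protease and inhibitor system were read from lists set beside the cluster. The list of other stefin A cluster genes held 8 symbols, of which 5 were in the matrices. Its Cstdc4 and Cstdc5 are the RefSeq symbols of the members Gm5483 and BC100530. Of the 5, only 2010005H15Rik passed the filter in all gated neutrophils. Its UMIs were 0, 183 and 7 in KO on days 0, 13 and 21, and 1, 410 and 27 in WT. It rose on day 13 by a fitted 6.72 in log2 (SE 0.60, edgeR adjusted p = 8.96e-05) and, set against day 13, fell by 4.18 on day 21 (SE 0.31, 4.97e-05). In WT its day 13 level was 119 times that of day 0 (counting interval 21.3 to 4714, on 1 UMI), and in KO at least 7.44-fold higher. Like Gm5483, BC100530 and Stfa2 it stood highest on day 13 in both genotypes, and its counts cannot be fully separated from those of Gm5483.

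Of 3 other cystatins tested, Cst7, which encodes cystatin F, an inhibitor of cathepsin C in immune cells, rose by 1.81 on day 13 (SE 0.32, edgeR adjusted p = 0.00560), and Cst3, which encodes the secreted cystatin C, fell by 1.56 (SE 0.32, 0.0114). Of 10 cysteine proteases 1 rose, Ctsc, which encodes the cathepsin C that activates granule serine proteases, by 2.14 (SE 0.33, 0.00326). Without mixed barcodes Cst7 did not pass the filter, none of 2 cystatins rose and Cst3 fell by 1.04, while of 7 cysteine proteases Ctsc and Ctss rose and Lgmn fell. Of 3 neutrophil serine proteases 2 rose, Ctsg by 2.24 (SE 0.38, 0.00505) and Prtn3 by 1.21 (SE 0.26, 0.0144). These 2 genes also belong to the progenitor marker list, whose genes sum to 3473 CPM in granule-rich KO and 2787 CPM in granule-rich WT neutrophils of day 13, against 1579 and 715 CPM on day 0, and whose part in the increase was not tested. They are also among the markers by which mixed barcodes were removed, after which Prtn3 still rose and Ctsg did not pass the filter.

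Among 5 other neutrophil protease inhibitors, Wfdc17 rose by 5.36 on day 13 (SE 0.47, edgeR adjusted p = 8.96e-05) and by 4.20 on day 21 (SE 0.46, 0.00260), and Wfdc21 fell by 1.58 on day 13 (SE 0.39, 0.0251); both encode small whey acidic protein domain proteins. Without mixed barcodes Wfdc17 rose by 7.81 on day 13 and by 6.07 on day 21, Serpinb1a rose by 0.68 on day 13 and Wfdc21 fell by 0.79. Of the 7 secondary and tertiary granule genes that did not enter the split, 5 fell on day 13 and none rose, among them Mmp9 by 2.02 (SE 0.32, 0.00373). Without mixed barcodes 3 fell, Mmp9 by 0.87, Cybb by 0.74 and Retnlg by 0.67, and 2 rose, Chil3 by 1.29 and Lcn2 by 0.67. Of 10 mature neutrophil genes 2 rose, Il1b by 1.59 and the decoy receptor gene Il1r2 by 1.68, and 2 fell, Hdc by 1.31 and Clec4d by 1.13. Without mixed barcodes Il1b and Il1r2 rose by 2.04 and 2.31, and none fell. From day 13 to day 21 Ctsg fell by 1.89 and Il1r2 by 1.57, and in all gated neutrophils no other gene of these lists but 2010005H15Rik and the members passed. Without mixed barcodes Il1r2 fell by 1.79, and Ctsc, Wfdc17, Chil3, BC117090 and Prtn3 also fell, while Retnlg and Wfdc21 rose. Between genotypes, none of the listed genes was called in all, granule-low or granule-rich neutrophils apart from Stfa2 and BC100530 in granule-low ones. Without mixed barcodes Slc16a3, a lactate transporter gene of the mature neutrophil list, was called higher in KO in all neutrophils, by 0.76 (SE 0.15, edgeR adjusted p = 0.0332).

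The genes whose level most resembled the summed members were ranked by Pearson correlation of log2 CPM over 12 sums (6 libraries, granule-low and granule-rich), among genes averaging 50 CPM or more. The sums share libraries and depth, so that the values describe them and carry no test. In all gated neutrophils they were Zyx (r = 0.89), Cd300lf (0.85), Spi1 (0.85), Actg1 (0.84) and Rac1 (0.84), of 1955 genes. Without mixed barcodes they were Ly6e (0.94), Slfn4 (0.94), Tapbp (0.93), H2-T22 (0.91) and Ifit3 (0.91), of 1560 genes, with none in both lists. Stfa2 was then closest to H2-Q7 (0.95), 2010005H15Rik (0.93) and H2-K1 (0.92), and Stfa1 to Isg15 (0.87), Ifit3 (0.86) and Slfn1 (0.86). Stfa3 was closest to Arf1 (0.93), Rpl15 (0.91) and Pnp (0.89).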

How the data were processed

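The 6 libraries of CD45+ cells were read on the 10x 3′ platform. The authors deposited raw UMI counts per gene and barcode, made with Cell Ranger 2.0.2 on mm10 per the submitters' processing notes; how reads that fit several cluster genes were treated is not given in the sources used here. Counts were summed per library over gated barcodes and tested with edgeR 4.0.16 in R 4.3.3 (TMM scaling, quasi-likelihood fit of genotype and day on 6 libraries, filterByExpr) and, as an alternative, with DESeq2 1.42.0. CPM values are counts scaled to 1000000 UMIs of the same barcodes. Within-day ratios use log2 of CPM plus 1 and genes of 10 CPM or more in either library, with exact 95% intervals for counting error only (scipy 1.17.1). Counts of 0 are read against 3 counts. Barcodes outside the gate were classed by most detected markers (3 or more, and 2 ahead of the next list). Named genes were the members, called genes of the lists, and the closest by correlation. The members and lists were chosen with earlier results of these data known, and removal of mixed barcodes was added after the data were seen. Each library is labelled as 5 mice, taken here to have been pooled, with nothing tying a barcode to an animal. The p-values thus measure the spread between libraries once additive genotype and day effects are taken out. The fits and intervals were tested on simulated data. The simulated genotype fit had no day effect and the same KO fold on every day. It therefore cannot show how that fit handles KO over WT ratios that change with day.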

Additional observations from a re-analysis of the deposited data

Results flagged for a closer look

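The KO over WT ratio of the summed members in all neutrophils changed between days, by -2.43 in log2 from day 0 to day 13 and by -1.08 from day 0 to day 21, with opposite signs on the days set against each other. Stfa2l1 changed by -2.48 from day 0 to day 13. Stfa1 changed by -3.96 from day 0 to day 13 and by 1.71 from day 13 to day 21. Stfa3 changed by -3.25 from day 0 to day 13 and by -2.70 from day 0 to day 21. None of these differences was tested, since each group has 1 library. In KO of day 0, 8 of 83 neutrophils held 138 of the 165 stefin A UMIs. Most Stfa1 UMIs of that library sat in 1 barcode, as did most Stfa3 UMIs.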

How the results depend on the processing

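No paired analysis was possible because the groups share only 1 replicate number. The genotype fit itself sets KO against WT within each day, as day is its covariate. Leaving out a library leaves its group's effect to the additive model of the other 5.

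Counts of genes called moved with the processing, and the cause was not tested. Between genotypes 1 gene was called in all neutrophils, against 21 with no filter on low counts, 24 without mixed barcodes, and 0 with a gate of 200 UMIs, of 3% of UMIs, or without barcodes of 3 or more T, B and microglia UMIs. In granule-low neutrophils the count was 4, against 2 with DESeq2, 7 with a gate of 50 UMIs, 1 without mixed barcodes and 0 without T, B and microglia barcodes. In granule-rich neutrophils it was 0, against 1 with DESeq2, 29 with no filter and 1 without mixed barcodes. Day 13 against day 0 gave 752, against 1210 with no filter. Day 21 against day 0 gave 14, against 107 with DESeq2, 295 with no filter, 34 and 53 with the gates of 200 UMIs and 3%, 103 without T, B and microglia barcodes and 176 without mixed ones. Day 21 against day 13 gave 30, against 235 with no filter, 67 with the 3% gate, and 80 and 237 with those 2 removals. Leaving out each library in turn gave 4 to 214 genes between genotypes in all neutrophils, 1 to 11 in granule-low and 2 to 117 in granule-rich ones, and 1 to 1858 for day 13 against day 0, 0 to 590 for day 21 against day 0 and 12 to 835 for day 21 against day 13.

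The summed KO over WT ratio kept its sign on days 0 and 13 under every setting. In log2 it was 1.33 on day 0 without T, B and microglia barcodes. On day 13 it was -1.50, against -1.57 both with CPM over all genes but S100a8 and S100a9 and with the gate of 50, -1.42 with that of 200, -1.31 with 3%, -1.30 without T, B and microglia barcodes and -0.80 without mixed ones. On day 21 it was -0.15, against 0.04 with CPM over all genes but S100a8 and S100a9 and -0.51 without mixed barcodes.

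Gm5483 turned to higher in KO on day 0, at 0.08 in all and 0.09 in granule-rich neutrophils, without T, B and microglia barcodes, and at 0.36 in granule-rich ones with a split at 40 UMIs. The granule-low over granule-rich log2 ratio turned as follows. Without T, B and microglia barcodes it was -0.36 for Gm5483 and -0.67 for BC100530 in KO of day 0, -0.04 for Stfa2 in KO of day 21 and -0.95 for Gm5483 in WT of day 0. Without mixed barcodes it was 0.99 for the sum and 0.70 for BC100530 in KO of day 13, -0.80 for Gm5483 in WT of day 0 and 0.28 for Stfa3 in WT of day 13. With the 3% gate it was 0.02 for the sum in KO of day 13 and 0.12 for Stfa3 in WT of day 13, and for Stfa2 in WT of day 0 it was -1.49 with a split at 10 UMIs and -1.52 with one at 0.5% of UMIs. Over all members and alternatives, 528 KO over WT values moved by less than counting error and 99 moved further. Another 3 were counted apart, as values that turned. For the granule-low over granule-rich values these 3 separate counts were 317, 150 and 12. Of the members' edgeR calls 428 kept their side of the threshold, 89 were gained and 21 were lost. Stfa3 was below the filter in granule-low neutrophils with those 2 splits and gave no value.

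Depth limits the day 0 values most, where Stfa2 and BC100530 had 0 to 9 UMIs a library.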
